A study of Mus musculus with 20 samples.

Results

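The response of the hippocampus to the Tg-SwDI transgene was described in mice with intact miR-34a, from 10 of the 20 RNA-seq libraries of the study. They were the 5 libraries labelled miR-34a WT (miR34a+/+) Tg-SwDI and the 5 labelled miR-34a WT Non-Tg, chosen by their labels alone. Each library came from the left hippocampus of 1 female mouse of 12 to 13 months on the C57BL/6 background. Tg-SwDI mice carry human APP with the Swedish, Dutch and Iowa mutations under the Thy1 promoter, so the transgene is expressed in neurons, and Non-Tg mice were their littermates without it. Both groups had the wild-type miR-34a locus, and the mice had gone through behavioural tests before tissue was taken. The miR-34a KO mice of the study, 5 Tg-SwDI and 5 Non-Tg, were used only to ask whether a gene responded differently without miR-34a.

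Amyloid beta is cut from APP by the beta- and gamma-secretases, and the Dutch and Iowa mutations lie within the peptide. In Tg-SwDI mice it is deposited in the hippocampal formation and along small vessels. Microglia that reach amyloid deposits are known to take on a plaque-associated state, in which TREM2 with its adaptor TYROBP signals through the kinase SYK and genes of lysosomes, lipid handling and phagocytosis are turned up. Astrocytes around deposits become reactive and make more of the intermediate filament GFAP.

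The 10 libraries held between 19929829 and 21066868 reads counted on genes. Of 39056 genes in the deposited table, 16107 passed a filter on low counts and were tested. Levels are given as CPM, counts scaled to library size with TMM factors, and single mice are named by the number in the library label (Non-Tg 2, 3, 4, 6 and 7, Tg-SwDI 3 to 7). Thy1, whose promoter drives the transgene, was at 720, 726, 725, 769 and 685 CPM in Non-Tg mice, against 1905, 2170, 2260, 2228 and 2328 CPM in Tg-SwDI mice, so the transgene label held in all 10. Thy1 does not bear on the miR-34a label. Counts on Thy1 cannot tell the endogenous gene from the transgene's Thy1 sequence. Genes of the principal neurons and interneurons of the hippocampus were present throughout, with the 20 genes of that list summing to between 7987 and 8293 CPM in Non-Tg and between 7157 and 8163 CPM in Tg-SwDI mice. The libraries differed in another tissue. Genes of the choroid plexus, the epithelium that lies against the hippocampus in the ventricles, summed to 3075, 463, 5067, 310 and 6928 CPM in Non-Tg mice, against 5804, 5456, 5073, 5690 and 406 CPM in Tg-SwDI mice. Non-Tg 3, Non-Tg 6 and Tg-SwDI 7 thus held little choroid plexus RNA. For many lists the number of genes called without them, or the genes that lost their call, is given too.

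Higher expression dominated the response. At a Benjamini-Hochberg adjusted p under 0.05 in the quasi-likelihood test of edgeR, 635 genes were called higher in Tg-SwDI mice (3.94% of the genes tested) and 75 were called lower (0.466%), together 4.41%. The increases were also larger. Of the 635 genes, 219 rose at least 2-fold, 57 at least 4-fold and 18 at least 8-fold, and their median was 1.69-fold, whereas the median of the 75 genes was a 1.22-fold decrease and 3 of them fell at least 2-fold. All 5 Tg-SwDI mice lay above all 5 Non-Tg mice for 557 of the 635 genes and below them for 47 of the 75, against 5.10% and 1.58% of all genes tested. The median log2 fold change of all genes tested was 0, and 2448 of the 16107 had an unadjusted p under 0.05 in the same test. Protein-coding genes made up 703 of the 710 calls. Genes called higher were found on every autosome and the X chromosome, at 2.47% to 5.45% of the genes tested on each. Without the 3 libraries with little choroid plexus RNA, 383 genes were called higher and 5 lower. The number called lower was also moved by single mice, to 31 without Non-Tg 6, 34 without Non-Tg 2, 36 without Non-Tg 3, 45 without Tg-SwDI 4, 43 without Tg-SwDI 5 and 148 without Non-Tg 7.

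By the same fit, the 12 largest increases among called genes with no overlap and a Tg-SwDI mean of at least 1 CPM were those of Cst7, Atp6v0d2, Itgax, Ctse, Pdcd1, Asb10, Cd200r4, Hcar2, Clec7a, Ccl3, Ccl6 and Lilrb4a. In all 12 genes every Tg-SwDI mouse lay above every Non-Tg mouse, which the rule for naming them required. Cst7 (ENSMUSG00000068129, mm10 chromosome 2, 150570415 to 150578944) encodes cystatin F, an inhibitor of cysteine cathepsins. It was at 1.09, 0.248, 0.564, 0.45 and 0.382 CPM in Non-Tg mice, against 69.0, 78.9, 77.7, 77.2 and 63.0 CPM in Tg-SwDI mice, an increase of 131-fold (log2 7.04, standard error 0.19, adjusted p = 4.1e-16). The Tg-SwDI mice spanned a narrow range, while the Non-Tg mice differed among themselves by more than 4-fold at a level near 1 CPM or below.

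Itgax (ENSMUSG00000030789, chromosome 7, 128129547 to 128150657) encodes the integrin CD11c. It was at 2.51, 0.248, 0.704, 0.5 and 0.811 CPM in Non-Tg mice, against 48.8, 56.4, 51.6, 56.0 and 43.4 CPM in Tg-SwDI mice, a 52.8-fold increase (log2 5.72, standard error 0.29, adjusted p = 3.4e-10). Non-Tg 2 stood apart from the other Non-Tg mice. It was also the highest Non-Tg mouse for Clec7a, which encodes the beta-glucan receptor Dectin-1 and was at 3.83 CPM there, at 0.793 to 1.86 CPM in the other Non-Tg mice, with 20.8 to 29.1 CPM in Tg-SwDI mice (log2 3.82, standard error 0.27).

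Several of these genes had next to no reads without the transgene. Atp6v0d2, an isoform of the V0 domain of the vacuolar proton pump, had 0, 0, 1, 0 and 2 reads in Non-Tg mice and 79, 81, 83, 94 and 57 reads in Tg-SwDI mice. The ratio of the groups was 130, with an exact 95% counting interval of 44.3 to 634. Ctse, the aspartic protease cathepsin E, had 0, 1, 1, 0 and 0 reads against 33, 22, 20, 35 and 25, a ratio of 67.0 (counting interval 18.2 to 559). These intervals cover counting error only. Pdcd1, the gene of the checkpoint receptor PD-1, had at most 3 reads in a Non-Tg mouse and 45 to 79 in each Tg-SwDI mouse, 28.0-fold more by the fit (log2 4.81, standard error 0.31, adjusted p = 4.7e-11).

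The remaining genes of the 12 were a nicotinic acid receptor, chemokines and paired immune receptors. Hcar2, the receptor for nicotinic acid and beta-hydroxybutyrate, rose from 0.0470 to 0.236 CPM in Non-Tg mice to 1.32 to 2.97 CPM in Tg-SwDI mice. Ccl6 rose from 2.03 to 4.54 CPM to 29.8 to 42.4 CPM, and Ccl3 from 0.141 to 1.04 CPM to 5.36 to 7.61 CPM. Cd200r4 and Lilrb4a, which belong to families of near-identical genes whose reads are uncertain, rose 16.9-fold and 12.6-fold. Asb10, an ankyrin-repeat gene, rose 17.7-fold, from at most 0.188 CPM in a Non-Tg mouse to at least 1.63 CPM in a Tg-SwDI mouse. The plot of these 12 genes by mouse shows the separation of the groups and the spread within each.

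**Figure D1:**
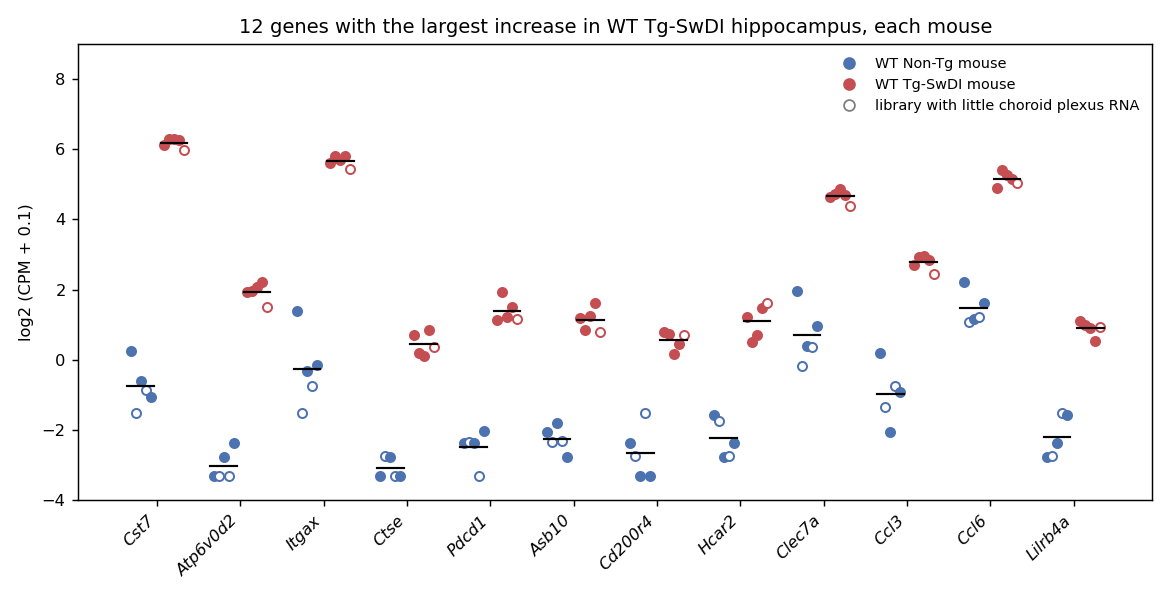
Level of the 12 genes with the largest increase, as log2 of CPM plus 0.1, in each of the 5 WT Non-Tg (blue) and 5 WT Tg-SwDI mice (red); bars are group means on that scale and open points are the 3 libraries with little choroid plexus RNA. Every red point lies above every blue point of its gene, and Non-Tg 2 is the highest blue point of Cst7, Itgax, Clec7a, Ccl3 and Ccl6.

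Genes of plaque-associated microglia rose nearly as a whole. Of 40 genes on that list, all tested, 36 were called higher and none lower, with a median log2 fold change of 1.5 against 0 over all genes tested. Like the other lists, it was chosen with earlier results of these data known, so its share of calls is not independent of them. Trem2 (ENSMUSG00000023992), the lipid and amyloid receptor of microglia, was at 14.3, 11.1, 11.9, 12.2 and 12.5 CPM in Non-Tg mice, against 66.1, 71.7, 71.4, 71.3 and 58.1 CPM in Tg-SwDI mice, 5.45-fold higher (log2 2.45, standard error 0.09, adjusted p = 1.8e-15). Its adaptor Tyrobp rose 4.87-fold, from 11.7 to 17.3 CPM to 56.8 to 74.0 CPM. The groups were far apart for both genes, and the spread within each group was small.

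Other members of the list differed widely in size. Gpnmb, a lysosomal glycoprotein, rose 8.28-fold and Spp1, the secreted phosphoprotein osteopontin, 6.92-fold, from 9.12 to 22.4 CPM to 75.5 to 126 CPM. Cd68, a lysosomal membrane glycoprotein of phagocytes, rose 4.39-fold and Cd22, an inhibitory sialic acid receptor, 4.59-fold. Smaller increases were seen in genes that many brain cells express. Apoe, the main lipid carrier of the brain, was at 1448, 1263, 1409, 1300 and 1519 CPM in Non-Tg mice, against 1953, 2162, 2018, 1983 and 1715 CPM in Tg-SwDI mice, 1.42-fold higher (standard error of the log2 0.06, adjusted p = 1.4e-06). Axl, Hif1a and Serpine2 rose by a log2 of 0.51, 0.31 and 0.36. The 4 members not called were Ank, Fth1, Postn and Timp2, with log2 fold changes of 0.08, 0.12, 0.69 and 0.05. The count stayed at 36 without the 3 libraries with little choroid plexus RNA.

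Homeostatic microglial genes were higher too, by less. Of 14 genes on that list, 13 were called higher and none lower, with a median log2 fold change of 0.76. P2ry12, the ADP receptor that guides microglial processes, was at 48.6, 47.4, 46.5, 48.7 and 49.8 CPM in Non-Tg mice, against 67.3, 67.2, 77.6, 68.4 and 69.2 CPM in Tg-SwDI mice, 1.45-fold higher (log2 0.54, standard error 0.07, adjusted p = 1.6e-06). Tmem119 rose by a log2 of 0.40, Cx3cr1, the fractalkine receptor, by 0.87 and Csf1r, the receptor of the survival factors CSF1 and IL-34, by 0.84. The largest increase of the list was that of Fcrls (log2 1.57). Slc2a5, a fructose transporter, was not called (log2 0.21, adjusted p = 0.30 by edgeR). When the 3 libraries with little choroid plexus RNA were left out, 10 were called, and Tmem119, Mertk and Sall1 were not. More cells of a type and more RNA per cell cannot be told apart in these bulk samples.

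General myeloid genes lay between those lists. Of 15 genes, 14 were called higher, with a median log2 fold change of 1.35. They included the phagocyte marker Cd84 (log2 1.96), the pan-leukocyte phosphatase Ptprc (1.79) and the transcription factor Irf8 (1.65). Spi1, which encodes the myeloid transcription factor PU.1, rose by 0.91, from 3.68 to 6.76 CPM to 7.76 to 10.2 CPM. The actin-binding protein Coro1a was the member not called (log2 -0.11). The list summed to 223, 167, 178, 177 and 177 CPM in Non-Tg mice, against 352, 399, 390, 394 and 367 CPM in Tg-SwDI mice, so Non-Tg 2 was again the highest of its group. The count was 13 without the 3 libraries with little choroid plexus RNA.

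Transcripts of TREM2 and SYK signalling rose too. Of 17 genes on that list, which holds Trem2 and Tyrobp themselves, 16 were called higher, with a median log2 fold change of 1.02. The kinase Syk rose by 0.68, the phospholipase Plcg2 by 0.61 and the inositol phosphatase Inpp5d, which opposes the pathway, by 1.03. The phosphatase Ptpn6 rose by 1.55 and the adaptor Lat2 by 1.69. Card9, which relays SYK signals to NF-kB, was not called (log2 0.43, adjusted p = 0.25 by edgeR). Syk was 1 of the genes that lost their call without the 3 libraries, where 14 of the 17 were called.

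Promoters of these genes were searched for the DNA motif of PU.1, because the myeloid genes moved together and Spi1 was among them. The letters searched were GAGGAAGT, on both strands, in RefSeq promoters (GRCm38.p6) that reach from 250 bases before to 50 bases after each start site. The motif was held by 3.20% of all 32851 promoters. By gene, it was held by 52 of the 516 genes called higher that had a promoter in the table (10.1%), by 1 of 55 called lower (1.82%) and by 405 of 12053 tested (3.36%). Of the listed microglial genes with a promoter, 1 of 32 plaque-associated genes (3.12%) and 1 of 12 general myeloid genes (8.33%) held it. Of 19 listed genes that held it, 12 were called higher, beside 178 of all 622 listed genes tested. The motif TCACGTGA, to which the lysosomal regulator TFEB binds, was held by 1.74% of the genes called higher and by 1.95% of the genes tested. Among the lysosomal genes with a promoter, it was held by 4 of 34 (11.8%), and the PU.1 motif also by 4 of 34. The TFEB motif was held by 1 of 32 plaque-associated genes and 1 of 12 general myeloid genes, the same counts as the PU.1 motif. Matches of the motifs can share at most 2 bases at their ends, and a match describes the letters in the window and not a bound site. The 250 bases before the start of Spp1, Inpp5d, C1qc and Ctsd, all called higher, are shown because each holds one of the motifs, which is in capitals.

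Spp1, chr5:104434861-104435110, plus strand: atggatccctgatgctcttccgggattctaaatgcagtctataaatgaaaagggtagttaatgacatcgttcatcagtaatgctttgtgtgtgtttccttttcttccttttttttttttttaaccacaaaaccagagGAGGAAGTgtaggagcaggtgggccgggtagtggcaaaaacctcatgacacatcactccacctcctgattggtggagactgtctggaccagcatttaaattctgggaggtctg
Inpp5d, chr1:87620062-87620311, plus strand: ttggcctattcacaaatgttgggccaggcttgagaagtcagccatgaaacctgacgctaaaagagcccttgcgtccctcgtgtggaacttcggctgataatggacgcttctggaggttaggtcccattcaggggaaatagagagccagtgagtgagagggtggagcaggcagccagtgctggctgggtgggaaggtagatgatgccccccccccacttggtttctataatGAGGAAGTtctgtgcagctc
C1qc, chr4:136892915-136893164, minus strand: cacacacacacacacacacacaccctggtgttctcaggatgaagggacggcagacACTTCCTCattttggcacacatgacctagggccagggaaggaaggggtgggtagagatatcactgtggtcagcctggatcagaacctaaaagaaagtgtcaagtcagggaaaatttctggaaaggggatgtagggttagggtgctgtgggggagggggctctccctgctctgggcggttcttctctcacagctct
Ctsd, chr7:142387828-142388077, minus strand: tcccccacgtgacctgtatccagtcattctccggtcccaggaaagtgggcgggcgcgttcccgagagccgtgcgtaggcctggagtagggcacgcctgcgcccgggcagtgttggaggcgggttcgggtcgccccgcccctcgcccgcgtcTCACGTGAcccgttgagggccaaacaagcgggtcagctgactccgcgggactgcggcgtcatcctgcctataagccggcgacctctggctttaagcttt

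In Inpp5d the PU.1 letters began 20 bases before the start site and in Spp1 113 bases before it. In C1qc they lay on the opposite strand, where the capitals read ACTTCCTC, 195 bases before the start. The TFEB letters of Ctsd began 99 bases before its start.

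Many lysosomal genes rose. Of 43 lysosomal genes, 27 were called higher and none lower, with a median log2 fold change of 0.37. Ctsd, the aspartic protease cathepsin D, was at 297, 214, 278, 228 and 319 CPM in Non-Tg mice, against 678, 786, 760, 816 and 631 CPM in Tg-SwDI mice, 2.75-fold higher (log2 1.46, standard error 0.09, adjusted p = 7.2e-11). The groups were well apart, and Non-Tg 3 and 6 were the lowest of the Non-Tg mice. The cysteine proteases Ctss, Ctsz and Ctsl rose by a log2 of 1.42, 1.43 and 0.90, and the glycosidases Gusb and Hexa by 1.01 and 0.93. Gaa, the glycogen-degrading glucosidase, was not called (log2 -0.15, adjusted p = 0.22 by edgeR). The call count was 27 also without the 3 libraries with little choroid plexus RNA.

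Of 20 subunits of the vacuolar ATPase, 2 were called higher, Atp6v0d2 and Tcirg1, an a-subunit of phagocytes and osteoclasts (log2 0.63), and the list's median was -0.05. None of 22 genes of cholesterol synthesis was called by edgeR or by DESeq2, at a median of 0.04 and with 1 at an unadjusted p under 0.05. Genes that carry, store or oxidise lipid were split, with 8 of 22 called higher, among them Ch25h, which makes 25-hydroxycholesterol (log2 2.29), the lipase Lpl (0.69), the lipid droplet protein Plin2 (0.61) and the cholesterol exporter Abca1 (0.47), whose call was lost without the 3 libraries with little choroid plexus RNA. Clu, another of these 8, lost its call without them too. Of the cystatins, Cst3, an abundant secreted inhibitor of cathepsins, rose by 0.37 beside the 7.04 of Cst7. The call of Cst3 was lost without Non-Tg 3, Non-Tg 6, Tg-SwDI 4 or Tg-SwDI 5, and without the 3 libraries together.

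**Figure D2:**
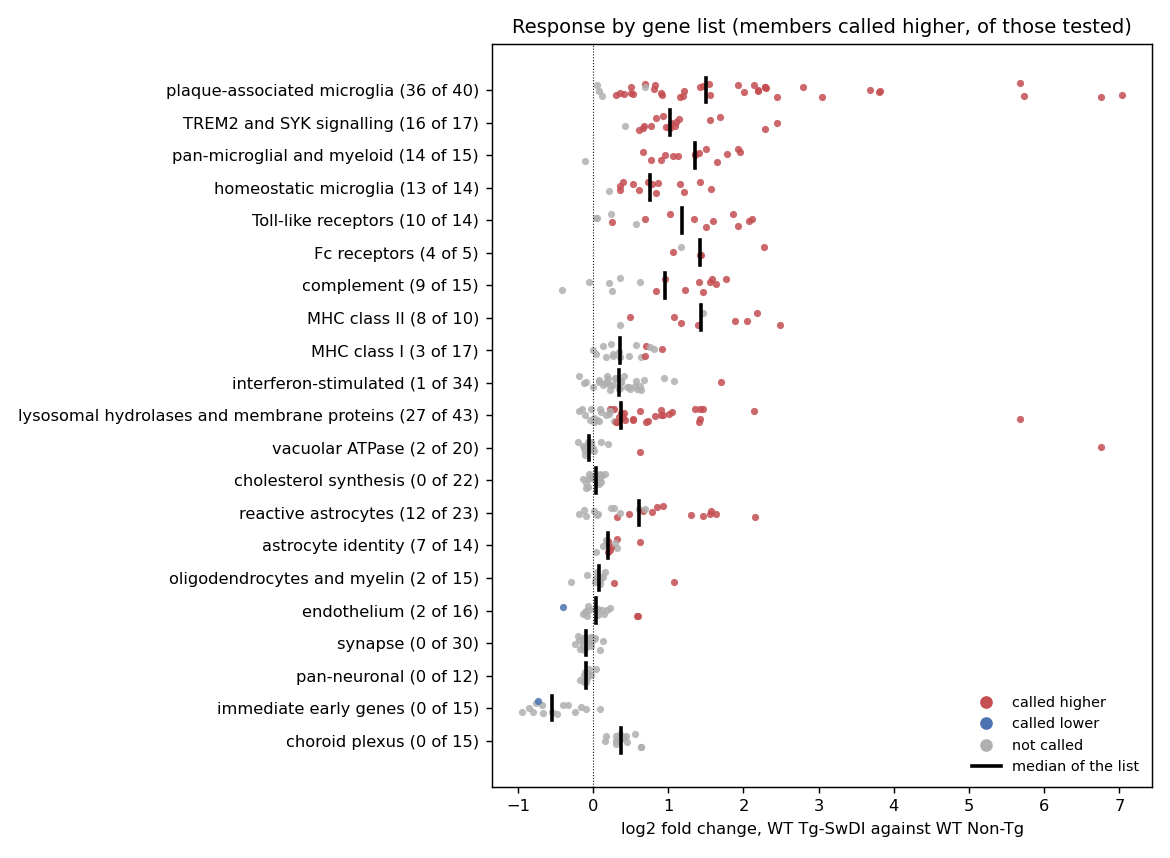
Log2 fold change of each tested member of 21 gene lists, WT Tg-SwDI against WT Non-Tg, coloured by call, with the median of each list as a black bar and the number called higher of those tested in brackets. Microglial lists lie to the right with medians of 0.76 to 1.5, neuronal lists lie close to 0, and the immediate early genes lie to the left with 1 call.

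Complement components and receptors of innate immunity rose as well. Of 17 complement genes, 15 were tested and 9 were called higher, at a median log2 fold change of 0.96. C1qa, a chain of the initiating protein C1q, was at 83.9, 49.0, 60.4, 54.4 and 64.3 CPM in Non-Tg mice, against 169, 214, 212, 201 and 173 CPM in Tg-SwDI mice, 3.10-fold higher (log2 1.63, standard error 0.14, adjusted p = 1.6e-07). C4b, which astrocytes and oligodendrocytes also make and whose reads can be shared with a close copy, rose 2.93-fold, and the receptor C3ar1 by a log2 of 1.76. C3, the central component, rose by 1.22 (standard error 0.26, adjusted p = 0.0065). The call of C5ar1 (log2 0.84, adjusted p = 0.047) was held under 7 of 20 alternative settings. With the 3 libraries with little choroid plexus RNA left out, 7 of the 15 were called, and C3 and C5ar1 were not.

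Receptors for antibodies and for microbial products rose too. Of 5 Fc receptor genes, 4 were called higher, led by the inhibitory receptor Fcgr2b, which rose 4.83-fold from 2.88 to 6.01 CPM to 19.9 to 24.0 CPM. Of 14 tested genes of Toll-like receptors and their partners, 10 were called higher. Tlr2, which senses lipoproteins, rose by a log2 of 2.11, Cd14 by 2.07, Cd180 by 1.86 and the RNA sensor Tlr7 by 1.5, from 3.37 to 4.90 CPM to 10.8 to 13.1 CPM. The adaptor Myd88 was not called (log2 0.05) and neither was Tlr4 (log2 0.57, adjusted p = 0.057 by edgeR). The count of Toll-like receptor genes was 7 of 14 without the 3 libraries.

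Among 33 cytokines, chemokines, growth factors and their receptors, 25 were tested and 12 were called higher. Beside Ccl3 and Ccl6 these included Osm, a ligand of the gp130 family (log2 2.39, on at most 0.821 CPM in any mouse), Ccl4, Cxcl16, Tgfb1, Csf1, Igf1, Ccl9, Cxcr4 and Spp1. Csf1, a growth factor of microglia, rose 1.75-fold and Tgfb1, which keeps microglia in their homeostatic state, 2.13-fold, from 6.97 to 10.2 CPM to 15.7 to 21.8 CPM. The neuronal chemokine Cx3cl1 had a log2 fold change of -0.17 and Il34 of -0.15, and neither was called. Tnf, Il1b, Il6 and Ccl2 were under the filter on low counts. Immune checkpoint genes other than Pdcd1 rose too, with 6 of 10 tested called higher. Lag3 was at 14.4, 6.25, 8.31, 7.10 and 7.02 CPM in Non-Tg mice, against 27.4, 38.4, 37.2, 34.6 and 29.3 CPM in Tg-SwDI mice, 3.86-fold higher (log2 1.95, standard error 0.18). Havcr2 rose by 1.21 and Vsir by 1.16. Without the 3 libraries with little choroid plexus RNA, 10 of the 25 cytokine genes, with Ccl9 and Cxcl16 no longer among them, and 4 of the 10 checkpoint genes were called.

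Markers of other immune cells were low. Of 20 lymphocyte genes, 15 were under the filter and none of the 5 tested was called by edgeR or DESeq2, with 1 at an unadjusted p under 0.05. Cd3d had at most 2 reads in any of the 10 mice. The list summed to 22.7 to 42.7 CPM in Non-Tg and to 27.9 to 78.7 CPM in Tg-SwDI mice. All 9 neutrophil genes were under the filter, with Ly6g at 0 reads in all 10 mice. None of 12 genes of border-associated macrophages was called by edgeR or DESeq2 (1 at an unadjusted p under 0.05), and the list summed to 23.04 to 35.5 CPM and 24.4 to 35.2 CPM.

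Antigen presentation by MHC class II rose, and class I and interferon-stimulated genes mostly did not pass the test. Of 10 class II genes, 8 were called higher, at a median log2 fold change of 1.43. Cd74, the invariant chain, was at 12.1, 4.61, 11.6, 3.80 and 14.2 CPM in Non-Tg mice, against 43.6, 79.9, 40.01, 50.2 and 47.5 CPM in Tg-SwDI mice (log2 2.49, standard error 0.39, adjusted p = 0.00052). H2-Ab1 rose by 2.18 and the costimulatory receptor Cd86 by 1.40. H2-Eb1 (log2 1.46, adjusted p = 0.12 by edgeR) and the master regulator Ciita (0.36) were not called. Non-Tg 3 and Non-Tg 6 had the lowest class II sums, 25.6 and 25.5 CPM against 44.9 to 55.4 CPM in the other Non-Tg mice, and Tg-SwDI 4 had the highest, 184 CPM against 108 to 121 CPM. Without the 3 libraries with little choroid plexus RNA, 6 of the 10 were called, and H2-Ab1 and H2-Aa were not.

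Of 17 MHC class I genes, 3 were called higher, B2m, H2-M3 and Psmb8. However, 16 of the 17 had positive log2 fold changes and 10 had an unadjusted p under 0.05 by edgeR. B2m, the light chain, rose by 0.92. The calls of H2-M3 and Psmb8 were each held under 9 of 20 alternative settings, and the count of the list was 1 without Non-Tg 3, Non-Tg 6, Tg-SwDI 3, Tg-SwDI 4 or Tg-SwDI 6 and 6 without Non-Tg 7. H2-K1 was at 36.7, 23.9, 33.3, 21.0 and 45.1 CPM in Non-Tg mice, against 46.1, 54.2, 52.0, 49.5 and 46.7 CPM in Tg-SwDI mice (log2 0.63, standard error 0.22, adjusted p = 0.15 by edgeR). The groups did not overlap for H2-K1, but the lowest Tg-SwDI mouse lay close to Non-Tg 7. Of 35 interferon-stimulated genes, 34 were tested and 1 was called, Ifi204, a member of a family of near-identical genes, whose call was held under 13 of 20 alternative settings and lost without Non-Tg 3, Non-Tg 4 or Non-Tg 6, among others. The list's median log2 fold change was 0.35, and it summed to 215, 160, 255, 153 and 274 CPM in Non-Tg mice, against 273, 284, 249, 314 and 264 CPM in Tg-SwDI mice. Rsad2 and Isg15 had log2 fold changes of -0.18 and 0.38 with standard errors of 0.33 and 0.43. Non-Tg 3 and Non-Tg 6, the Non-Tg mice with little choroid plexus RNA, had the lowest class I and interferon sums of their group. Tg-SwDI 7 had the lowest class I sum of its group, 445.5 CPM against 454.1 to 570.3 CPM. For interferon genes it lay among the other Tg-SwDI mice. Without these 3 libraries the median of the interferon list was 0.063 and none of its genes was called by edgeR, and 1 class I gene was called, at a list median of 0.175. With the choroid plexus level of each mouse as a covariate instead, the medians were 0.286 for the interferon list, with 2 genes called, and 0.32 for class I, with 1 called.

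**Figure D3:**
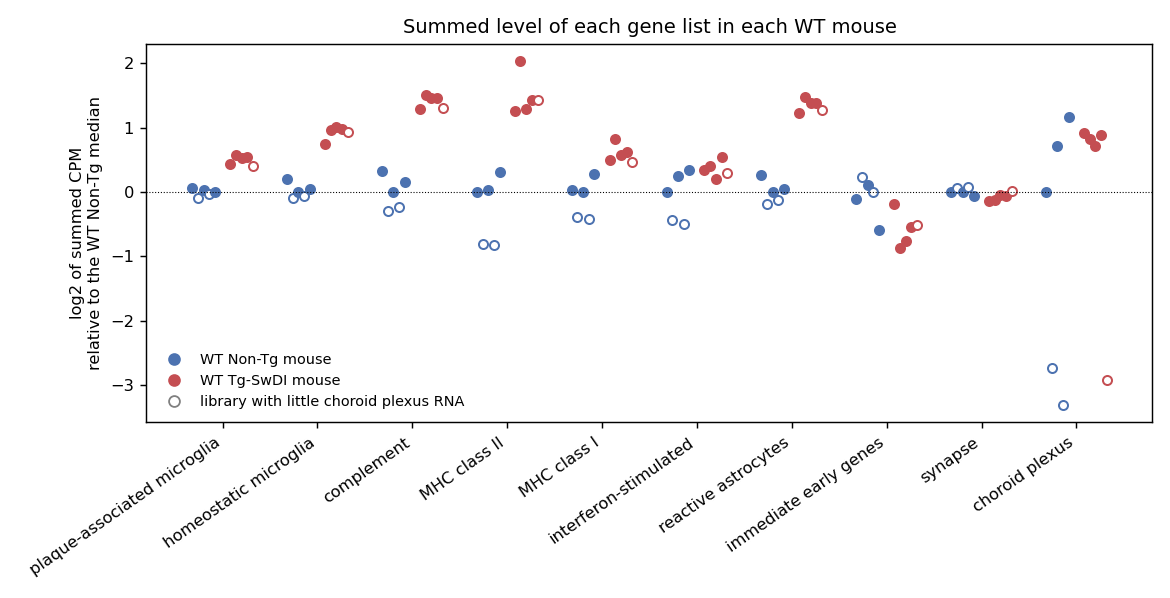
Summed CPM of 10 gene lists in each WT mouse, as log2 relative to the median WT Non-Tg mouse; Non-Tg mice are blue, Tg-SwDI mice red, and the 3 libraries with little choroid plexus RNA open. The Tg-SwDI mice lie above all Non-Tg mice for microglial, complement, MHC and reactive astrocyte lists, overlap them for interferon-stimulated, immediate early and synapse genes, and the open points lie lowest for choroid plexus genes.

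Reactive astrocyte genes rose. Of 23 on that list, 12 were called higher and none lower, at a median log2 fold change of 0.61. Gfap was at 497, 335, 372, 356 and 378 CPM in Non-Tg mice, against 1042, 1336, 1270, 1215 and 1137 CPM in Tg-SwDI mice, 3.10-fold higher (log2 1.63, standard error 0.13, adjusted p = 2.3e-08). Serpina3n, a secreted protease inhibitor, was at 50.9 to 56.2 CPM in Non-Tg mice, against 135 to 158 CPM in Tg-SwDI mice, 2.76-fold higher. Non-Tg 2 was the highest Non-Tg mouse for both. Osmr, the receptor of oncostatin M, rose by 1.30, Aspg by 1.57, the adhesion receptor Cd44 by 0.48 and the transcription factor Stat3 by 0.31. Lcn2, an iron-siderophore carrier, rose by 2.16 on 13 to 39 reads per Tg-SwDI mouse. Timp1 was not called (log2 0.69, adjusted p = 0.23 by edgeR). When the 3 libraries with little choroid plexus RNA were left out, 9 of the 23 were called, and Cd44, Lcn2 and Vim were not.

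Genes that mark astrocytes in any state had smaller fold changes. Of 14, 7 were called higher, with log2 fold changes of at most 0.62. The water channel Aqp4 had the largest and was at 187, 162, 181, 169 and 201 CPM in Non-Tg mice, against 209, 314, 279, 293 and 291 CPM in Tg-SwDI mice. The glutamate transporter Slc1a2 rose by 0.23 and the calcium-binding protein S100b by 0.31. In 4 of the 7 genes (Slc1a3, Aldoc, Glul and Mlc1) the call was held under 10 of 20 alternative settings, and the count of the list was 3 or 4 when any 1 of Non-Tg 3, 4 and 6 and Tg-SwDI 4, 5, 6 and 7 was left out. Without the 3 libraries with little choroid plexus RNA it was 1.

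Oligodendrocyte and vascular genes gave single calls. Of 15 myelin and oligodendrocyte genes tested, Klk6, a secreted serine protease, rose by 1.08, from 1.55 to 2.15 CPM to 2.58 to 4.97 CPM, and Cldn11 by 0.28. Mbp, the myelin basic protein, had a log2 fold change of 0.05 and was not called. The call of Cldn11 was lost without Non-Tg 7, Tg-SwDI 4 or Tg-SwDI 6, and without the 3 libraries with little choroid plexus RNA. None of 10 genes of oligodendrocyte precursors was called by edgeR or DESeq2, and none had an unadjusted p under 0.05. Among 16 endothelial genes Mfsd2a, the transporter of omega-3 lipids at the blood-brain barrier, rose 1.49-fold and the adhesion molecule Icam1 rose by a log2 of 0.59 (called under 10 of 20 alternative settings), while the angiopoietin receptor Tek fell by 0.39. Tek was at 13.9, 11.4, 17.6, 14.3 and 13.7 CPM in Non-Tg mice, against 10.9, 8.37, 10.7, 13.9 and 10.1 CPM in Tg-SwDI mice, with overlap through Tg-SwDI 6, and was called under 8 of 20 alternative settings. None of these 3 endothelial calls held without the 3 libraries with little choroid plexus RNA. The tight junction gene Cldn5 was not called (log2 -0.11). Of 19 genes of mural cells and fibroblasts, Abcc9, a subunit of the pericyte potassium channel, rose by 0.36.

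Neuronal lists had medians just below 0. None of 12 pan-neuronal genes and none of 30 synapse genes was called by edgeR, and 1 gene of each list was called by DESeq2. An unadjusted p under 0.05 by edgeR was found for 2 and 3 of them, against 2448 of the 16107 genes tested. The median log2 fold changes of the lists were -0.09 and -0.10, and 5 of the 30 synapse genes were positive against 8056 of the 16107 genes tested. Of 20 genes of hippocampal neuron classes, Slc32a1, the vesicular transporter of GABA, fell by 0.17. It was at 97.3, 96.1, 95.8, 93.8 and 99.0 CPM in Non-Tg mice, against 84.6, 91.6, 78.9, 88.4 and 85.7 CPM in Tg-SwDI mice, without overlap, and was called under 6 of 20 alternative settings. Its call was lost without the 3 libraries with little choroid plexus RNA, among others.

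Among called genes whose groups did not overlap and whose Non-Tg mean was at least 1 CPM, the 12 largest decreases lay between a log2 of -0.37 and -1.10. Ngef, a neuronal guanine nucleotide exchange factor also called ephexin, had the lowest adjusted p of the 12. It was at 105, 125, 115, 110 and 101 CPM in Non-Tg mice, against 59.0, 59.8, 67.6, 70.2 and 68.2 CPM in Tg-SwDI mice (ENSMUSG00000026259, chromosome 1, 87476834 to 87573870). It fell by 0.78 on the log2 scale (standard error 0.06, adjusted p = 2.7e-09), and it was called in every alternative. The only other of the 12 called in every alternative was Ccdc184, which fell by 0.37, from 18.6 to 21.2 CPM to 14.7 to 15.96 CPM.

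Rpe65, known for its isomerase in the visual cycle, and Gkn3, a gastrokine of brain arteries, had the largest folds at low levels. Rpe65 was at 0.709, 1.29, 1.08, 1.499 and 1.002 CPM in Non-Tg mice, against 0.563, 0.473, 0.540, 0.435 and 0.574 CPM in Tg-SwDI mice (log2 -1.10, standard error 0.27). Gkn3 fell by 1.05, from 1.81 to 2.45 CPM to 0.813 to 1.45 CPM. Secreted neuronal peptides were among the 12 as well. Vgf, a neurotrophin-induced peptide precursor, was at 273, 269, 272, 265 and 217 CPM in Non-Tg mice, against 169, 204, 187, 208 and 211 CPM in Tg-SwDI mice (log2 -0.41, standard error 0.10, adjusted p = 0.011), with Non-Tg 7 closest to the Tg-SwDI mice. Adcyap1, which encodes the neuropeptide PACAP, fell by 0.45. Vgf and Adcyap1 were 2 of 19 tested neuropeptide and secreted neuronal genes called, and Sst, somatostatin, was not (log2 -0.27, adjusted p = 0.50 by edgeR), although its groups did not overlap. Adcyap1 was not called without Non-Tg 6 or without Tg-SwDI 4. The remaining genes of the 12 were Pgpep1l, Npbwr1, Stac, Ndst4, Bend5 and Ltbp4, with log2 fold changes of -0.64, -0.61, -0.53, -0.43, -0.40 and -0.37. The call of Pgpep1l was held under 6 of 19 alternative settings, that of Npbwr1 under 11 of 20 and that of Ndst4 under 13 of 20. Without the 3 libraries with little choroid plexus RNA, only Ngef and Ccdc184 of the 12 were called.

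**Figure D4:**
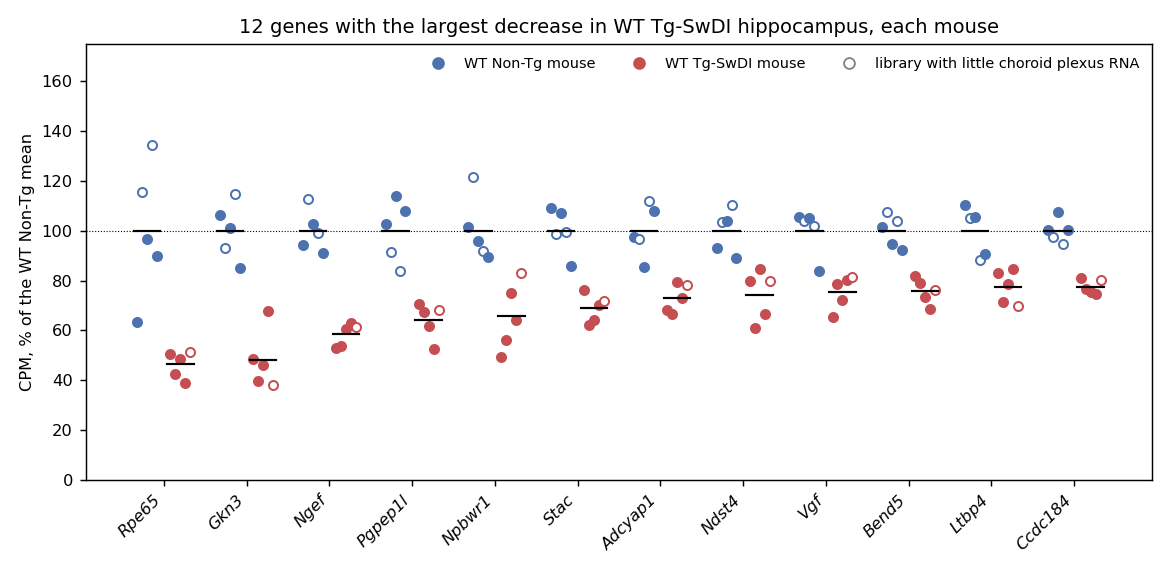
Level of the 12 genes with the largest decrease in each WT mouse, as CPM in percent of the WT Non-Tg mean; Non-Tg mice are blue, Tg-SwDI mice red, bars are group means, and open points are the 3 libraries with little choroid plexus RNA. No red point reaches a blue point of its gene, and the groups of Ngef are well separated.

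Immediate early genes, which neurons switch on within minutes of activity, had mostly negative values that did not pass the test after adjustment. Of 15, 14 had negative log2 fold changes, the median was -0.55, and 1, the transcription factor Egr4, was called lower (log2 -0.73, adjusted p = 0.011). An unadjusted p under 0.05 by edgeR was found for 11 of the 15, against 2448 of the 16107 genes tested. Fos was at 18.2, 28.3, 24.6, 22.9 and 8.02 CPM in Non-Tg mice, against 20.6, 8.09, 10.2, 9.52 and 10.3 CPM in Tg-SwDI mice (log2 -0.80, standard error 0.35, adjusted p = 0.29 by edgeR). Non-Tg 7 lay with the Tg-SwDI mice and Tg-SwDI 3 with the Non-Tg mice. The same mice stood apart for Arc, whose protein acts at synapses, at 98.7 CPM in Non-Tg 7 against 176 to 226 CPM in the other Non-Tg mice, and at 166 CPM in Tg-SwDI 3 against 73.9 to 124 CPM in the other Tg-SwDI mice. For Nr4a1 these values were 49.3 CPM against 81.9 to 119 CPM, and 73.9 CPM against 31.3 to 46.4 CPM (log2 -0.95, adjusted p = 0.092 by edgeR). The number of genes of the list called lower was 4 without Non-Tg 7, 3 without Tg-SwDI 3 and 0 without the 3 libraries with little choroid plexus RNA, 4 by DESeq2 and 9 by exactTest of edgeR run on these 10 mice. It was 2 when the replicate number entered as a block.

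Of 18 genes of APP and its processing, 1 was called. App was at 1695, 1724, 1690, 1724 and 1643 CPM in Non-Tg mice, against 1778, 1765, 1836, 1958 and 1895 CPM in Tg-SwDI mice, without overlap, and was not called (log2 0.12, standard error 0.05, adjusted p = 0.26 by edgeR). The transgene is the human gene, of which reads that also match the mouse gene may be counted here. Adam17, an alpha-secretase that sheds cytokine receptors as well, was that gene, at a log2 of 0.46, and was not called without the 3 libraries with little choroid plexus RNA. Ide, an amyloid-degrading protease, was at 53.2 to 89.0 CPM in Non-Tg mice, against 90.5 to 120 CPM in Tg-SwDI mice and was not called (adjusted p = 0.54 by edgeR). Of 24 mouse counterparts of Alzheimer risk genes, 12 were called higher and none lower. They were Trem2, Inpp5d, Spi1, Abi3 (log2 0.90), Cd33, Grn, Rin3 (0.62), Plcg2, Apoe, Clu, Sppl2a (0.25) and Picalm. The call of Picalm (0.16) was held under 10 of 20 alternative settings, and 9 of the 24 were called without the 3 libraries, with Clu, Rin3 and Picalm lost.

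Smaller sets gave isolated calls. Hmox1, which degrades haem, rose by 0.66 and the metallothionein Mt2 by 0.71, from 115 to 139 CPM to 192 to 228 CPM, as 2 of 11 tested iron, haem and metallothionein genes. Mt1 was not called (log2 0.53, adjusted p = 0.053 by edgeR). Of 15 proliferation genes tested, Cdk1 rose by 1.47 on at most 1.24 CPM in any mouse and Mki67 by 0.56, called under 13 of 19 and 9 of 20 alternative settings. Of 14 clock genes, the repressor Cry2 fell by 0.25, Ciart fell by 0.31 (called under 7 of 20 alternative settings) and the repressor Bhlhe41 rose by 0.26. None of the proliferation and clock genes was called without the 3 libraries with little choroid plexus RNA. None of 13 mitochondrially encoded genes was called by edgeR or DESeq2, and none had an unadjusted p under 0.05.

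The mice of a group did not all contribute alike. Over the 635 genes called higher, Non-Tg 2 was the highest Non-Tg mouse for 42.2% and Non-Tg 7 for 34.8%, against 15.9% and 26.5% of all genes tested. Non-Tg 3 and Non-Tg 6, with little choroid plexus RNA, were the lowest for 41.6% and 29.0%, against 19.5% and 18.2% of all genes. Among the Tg-SwDI mice, Tg-SwDI 3 was the lowest for 34.5% and Tg-SwDI 7 for 32.6% (21.4% and 21.7% of all genes), and Tg-SwDI 4 and Tg-SwDI 6 were the highest for 32.6% and 29.8% (20.5% and 21.6%). The sum over the plaque-associated list was 7883, 8705, 8377, 8518 and 7683 CPM in Tg-SwDI 3 to 7.

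The response was then compared with that of the miR-34a KO mice, which share no sample with it. The 635 genes called higher in WT mice had a positive log2 fold change in KO mice in 627 cases, and the 75 called lower had a negative one in 64, where 60.2% of all genes tested had the same direction in both. The median log2 fold change of the 635 genes was 0.76 in WT and 1.09 in KO mice, and that of the 75 genes was -0.28 and -0.13. The difference between the responses was tested by the interaction of the edgeR fit. It was called for 98 genes (0.608% of those tested), and for 45 of the 635 genes the difference was called, with the larger response in KO mice in 44. Of the 75 genes called lower, 2 differed.

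Grn, Ctsb, Gpx1, Ciart and Trem2 had the lowest adjusted p for the difference. Grn, which encodes the lysosomal glycoprotein progranulin, was at 68.4, 58.1, 62.9, 59.8 and 61.2 CPM in WT Non-Tg mice, against 100, 108, 110, 120 and 110 CPM in WT Tg-SwDI mice, a log2 of 0.82 against 1.45 in KO mice (difference -0.63, standard error 0.09, adjusted p = 0.0086). Ctsb, the cysteine protease cathepsin B, had 0.41 against 0.79, and Trem2 2.45 against 3.23. Gpx1, a glutathione peroxidase, was not called in WT mice (0.14) and had 0.60 in KO mice. Ciart, a repressor of the clock, fell by 0.31 in WT mice and had 0.40 in KO mice. Clec7a, with 3.82 against 5.96, was the one gene of the 12 largest WT increases whose difference was called. For Cst7 (7.04 and 7.99), Itgax (5.72 and 7.01) and Pdcd1 (4.81 and 4.96) the difference was not called (adjusted p = 0.26, 0.27 and 0.94 by edgeR). Ngef had -0.78 and -0.62, and its difference was not called either.

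By list, the difference was called for 7 of the 40 plaque-associated genes, 9 of the 43 lysosomal genes, 3 of the 17 TREM2 and SYK genes, 2 of the 14 homeostatic genes, 1 of the 10 class II genes (H2-Oa) and none of the 34 interferon-stimulated genes. These lists share genes. Ctsb, Ctsd and Cd68 are counted as both plaque-associated and lysosomal, and Trem2 and Tyrobp as both plaque-associated and TREM2 and SYK genes. The medians in WT and KO mice were 1.5 and 2.10 for plaque-associated genes, 0.76 and 1.14 for homeostatic genes, 0.61 and 1.22 for reactive astrocyte genes, 0.35 and 1.5 for class I genes and 0.35 and 1.42 for interferon-stimulated genes. In KO mice 33 of the 34 interferon-stimulated genes were called higher, against 1 in WT mice. For the 17 class I genes these numbers were 15 and 3, and for all 16107 genes tested they were 2013 and 635. A difference that was not called thus does not mean that the responses were equal. The choroid plexus list moved as well, with medians of 0.37 and 3.15. It summed to 273 to 733 CPM in KO Non-Tg mice and to 422 to 5663 CPM in KO Tg-SwDI mice, so that choroid plexus RNA and the transgene went together in KO mice more than in WT mice. With the choroid plexus level of each mouse as a covariate, 31 genes were called for the difference in place of 98, and with the replicate number as a block, 38. The count was 26 without Non-Tg 2, 36 without Non-Tg 4, 46 without Tg-SwDI 3, 64 without Tg-SwDI 5, 31 without Tg-SwDI 7 and 170 without Non-Tg 3. The KO Tg-SwDI libraries also differed among themselves. KO Tg-SwDI 8 had the lowest TMM factor, 0.9013, with the next at 0.9811. Mitochondrially encoded genes summed to 79066 to 161693 CPM in KO Tg-SwDI mice, against 69847 to 83430 CPM in WT Tg-SwDI mice. No KO mouse was left out, so how far the differences rest on a single KO library was not tested. The part of choroid plexus RNA in the KO list medians and calls was not tested.

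**Figure D5:**
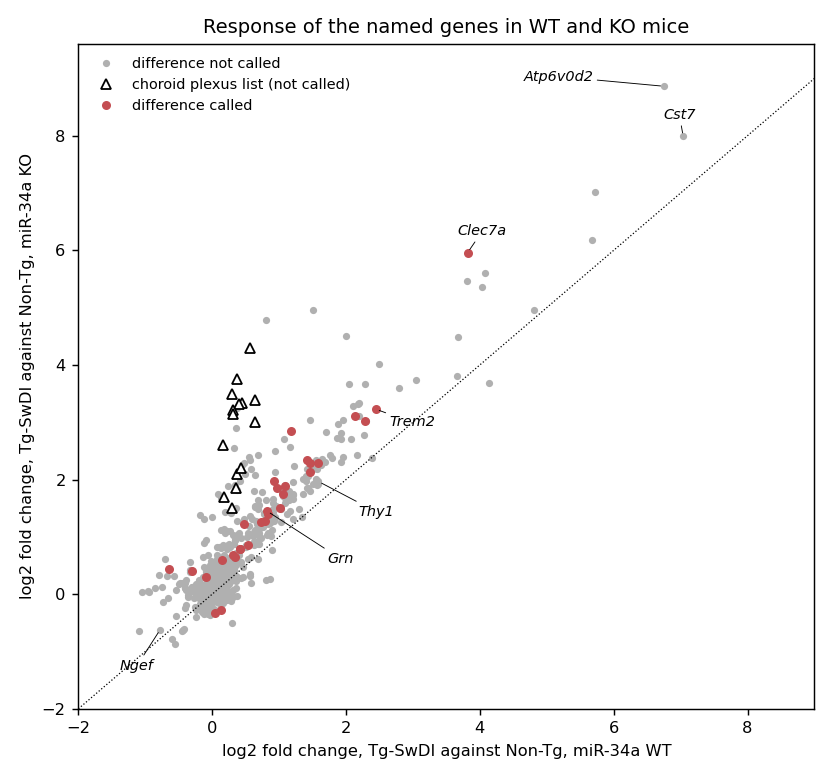
Log2 fold change of the named genes, Tg-SwDI against Non-Tg, in miR-34a WT mice (horizontal) and miR-34a KO mice (vertical), with genes whose difference was called in red, choroid plexus genes as open triangles and equality as a dotted line. Most red points, Clec7a, Trem2 and Grn among them, lie above the line, and the triangles lie far above it at 0.15 to 0.64 on the horizontal axis.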

How the data were processed

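RNA-seq libraries (stranded mRNA) of the left hippocampus were analysed. The authors aligned reads with STAR to mm10, counted them per ENSEMBL gene with FeatureCounts and deposited raw counts without normalization. Tool versions, the strand setting and the handling of reads matching several genes are not given in the sources used here. Samples were grouped by their labels. Where nothing but the mouse separates replicates, p-values measure the spread between these mice.

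Genes with enough counts (edgeR 4.0.16, filterByExpr by group, minimum count 10, minimum total 15) were TMM-scaled, and all 20 mice were fitted to 4 group means (R 4.3.3, limma 3.58.1, quasi-likelihood test, robust, two-sided, 16 residual degrees of freedom). Contrasts were Tg-SwDI minus Non-Tg in WT, the same in KO, and their difference. P-values were adjusted over 16107 genes by Benjamini-Hochberg and called at 0.05. The 10 WT libraries held 19929829 to 21066868 counted reads, which limits precision under about 1 CPM. CPM was computed from the counts here. The fit was tested on simulated data.

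Members and the 42 gene lists were chosen with earlier results of these data known. The lists held 675 genes, of which 622 were tested. Lists are described by counts and medians, with no set test. Named genes were the 12 largest increases and 12 largest decreases among called genes with no overlap between groups and a mean of at least 1 CPM in the higher group, any list member, the 5 genes with the lowest adjusted p for the WT-KO difference, and label checks. Replicates were compared for duplicates, and none was found. Symbols came from a gene table that held 38872 of 39056 identifiers, positions from GENCODE M21. Python 3.11.15 was used for tables.

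Alternatives were RLE factors, library size alone, no filter, a mean CPM of at least 1, DESeq2 1.42.0, the 10 WT mice alone, exactTest on them, a covariate for choroid plexus RNA, the replicate number as a block and each WT mouse left out. Leaving out 3 libraries with little choroid plexus RNA was chosen after seeing the data. A few list members, counted with their lists, are not reported here by name.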

Additional observations from a re-analysis of the deposited data

Results flagged for a closer look

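Of 140 groups of 5 mice examined for a mouse far from the rest of its group, 7 (5.0%) went past the limit for the gap divided by the range (0.71 for 5 samples). That limit is set so that 5.0% of independent groups pass it by chance. The groups here were not independent, because lists share genes and some genes were picked for their separation. Their share therefore cannot tell whether chance produced these cases. Non-Tg 2 was the high mouse for Itgax, with a ratio of 0.7505, and for the summed general myeloid genes, with 0.8011 (223 CPM against 167 to 178 CPM in the other Non-Tg mice). Non-Tg 7 was the low mouse for Vgf (0.8515). Among the Tg-SwDI mice, the summed class II genes were high in Tg-SwDI 4 (0.8173), the summed lymphocyte genes in Tg-SwDI 5 (0.7851, 78.7 CPM against 27.9 to 38.8 CPM) and the summed genes of the thalamus, which borders the dissection, in Tg-SwDI 6 (0.7343, 135 CPM against 108 to 116 CPM). The choroid plexus genes were low in Tg-SwDI 7 (0.8645).

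Of the genes named for their size or their adjusted p, 7 had a Tg-SwDI response that differed between WT and KO mice by the interaction of the edgeR fit. Of these 7, Grn, Ctsb, Gpx1, Ciart and Trem2 had been named for the lowest adjusted p of this same difference. Clec7a and Pgpep1l had been named for the size of their change in WT mice. The WT minus KO difference on the log2 scale was -0.626 for Grn (adjusted p = 0.00861), -0.704 for Ciart, -0.458 for Gpx1, -0.38 for Ctsb and -0.781 for Trem2 (adjusted p = 0.0146 for each), -1.07 for Pgpep1l (adjusted p = 0.0454) and -2.14 for Clec7a (adjusted p = 0.0461). Ciart and Pgpep1l were lower in WT Tg-SwDI mice and had positive values in KO mice, 0.40 and 0.43. Their calls in WT mice were held under 7 of 20 and 6 of 19 alternative settings. The differences of single genes were not examined under those settings.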

How the results depend on the processing

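The number of genes called in WT mice was 710, and 388 without the 3 libraries with little choroid plexus RNA, of which 383 were among the 710. It was between 537 and 891 when 1 WT mouse was left out. The 10 WT mice alone gave 753 genes higher and 193 lower, exactTest on them 792 and 224, and DESeq2 686 and 152, against 635 and 75. The number called for the difference between WT and KO was 98, and 59 by library size alone, 482 by DESeq2, 31 with the choroid plexus score, 38 with the replicate block and 220 without the 3 libraries. Leaving out 1 WT mouse gave 26 to 170. The cause of these shifts was not tested. Same-numbered WT mice deviated from their group means with correlations of -0.026, 0.139, -0.263 and -0.404. The largest correlations were 0.504 for Non-Tg 6 with Tg-SwDI 7 and 0.402 for Non-Tg 3 with Tg-SwDI 7, all libraries with little choroid plexus RNA. Whether the replicate number marks a shared batch cannot be told from these values. The replicate block gave 709 genes in WT mice, 623 of them among the 710. Of 199 called genes named, 142 were called under every alternative that gave a value for them, of 20 at most, and none changed sign. Depth limits genes under about 1 CPM, where a library holds about 20 reads or fewer.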
